A study of Mus musculus with 12 samples.

Results

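The genes described here are 10 names chosen as markers of absorptive cells of the colonic epithelium. They are *Alpi*, *Car1*, *Car4*, *Aqp8*, *Guca2a*, *Vil1*, *Ceacam20*, *Slc37a2*, *Fabp2*, and *Best4*, taken as the rows of those names in 12 libraries of mouse colon and urinary bladder. Of the 54532 genes in the files, 9 carried one of these names, each in a single row per library. No row was named *Best4*. The files list *Best4-ps* (ENSMUSG00000033872, chr4:117145257-117148637, GRCm38), which the annotation calls a unitary pseudogene, and it was not counted as a member. The genes were chosen by name, and no measured value entered the choice, although earlier results of these data were known when the names were drawn up.

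All 9 mice were males of 5 to 7 weeks that carried floxed *Yap1* and *Wwtr1* (the genes of YAP and TAZ), and all received tamoxifen at 1 mg per mouse per day in 5 injections, with tissue taken on day 7 after the first. Mice without the Myh11CreERT2 transgene were controls (Ctrl), and mice with it were knockouts (Y/T KO). The *Myh11* promoter drives this Cre in smooth muscle, so the floxed genes were not targeted in the epithelium that expresses the genes described here. Distal colon came from controls 788, 786, and 787 and knockouts 759, 783, and 780. Bladder came from controls 784, 785, and 788 and knockouts 782, 783, and 780, and 3 of the mice thus gave both tissues. Values below follow these orders of mice.

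Absorptive colonocytes line the surface of the large intestine and take up water, sodium, and chloride across a brush border of microvilli, handing bicarbonate to the lumen in exchange. Carbonic anhydrases supply the bicarbonate and protons for that exchange, water follows through the epithelium and its channels, and villin bundles the actin of the microvilli. The cells mature as they move from crypt to surface, and their full set of transporters and enzymes appears late in that move, alongside mucus-secreting goblet cells and rare hormone-secreting cells.

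Values are TPM, a transcript's share of its library corrected for transcript length, so levels can be set side by side between genes. The libraries held 2.80 to 3.94 gigabases of aligned sequence. Means with SD are of TPM rescaled by size factors within a tissue, and values of single mice are TPM as deposited. RNA came from homogenates of the whole organ wall, in which fewer cells of a type and less RNA per cell cannot be told apart. The labelled tissues carried their defining markers. *Epcam*, an epithelial adhesion protein, stood at 1476 to 1822 TPM in colon and 46.7 to 108 TPM in bladder, and *Upk2*, a urothelial plaque protein, at 642 to 905 TPM in bladder and at 0 in 5 of 6 colon libraries. The goblet mucin *Muc2* was listed at only 0.0288 to 0.917 TPM in colon, whereas its secreted companions *Fcgbp* (527 to 936 TPM) and *Zg16* (10064 to 21629 TPM) were abundant there. *Myh11*, the smooth muscle myosin, stood at 355 to 452 TPM in Ctrl colon and 168 to 229 TPM in Y/T KO colon. Of the floxed genes, *Yap1* ran from 45.8 to 54.9 TPM in control colon and from 41.3 to 47.0 TPM in knockout colon, and from 98.6 to 109.8 TPM in control bladder and from 69.4 to 72.1 TPM in knockout bladder, where alone the genotypes were apart. *Wwtr1* overlapped between genotypes in both tissues. Whole-tissue RNA of the floxed genes thus gives no check of the labels in colon, and each library is taken as labelled.

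The members were higher in colon than in bladder, where their levels were low or listed at 0. *Alpi* was near the floor in colon too, at 0.134 to 0.139 TPM in Ctrl and 0.563 to 0.810 TPM in Y/T KO. Summed over the 9 genes, they took 0.606% to 0.664% of Ctrl colon libraries and 0.331% to 0.546% of Y/T KO colon libraries, but 0.00254% to 0.00403% of Ctrl bladder libraries and 0.00178% to 0.00378% of Y/T KO bladder libraries. In Ctrl mice all 9 were higher in colon than in bladder at a limma adjusted p (Benjamini-Hochberg over 19773 genes) under 0.05, where 25.1% of all genes tested were called higher and 25.3% lower. Every Ctrl colon library lay above every Ctrl bladder library for each of the 9, which 21% of all genes tested showed. With TPM as deposited in place of rescaled TPM the calls over all genes split into 6312 lower and 3510 higher in place of 5004 and 4959, as the median of all genes shifted to -0.24, and all 9 members were still called higher.

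Among the 7 members with values above 0 in the bladder, *Car1*, a cytosolic carbonic anhydrase, had a log2 difference between Ctrl colon and Ctrl bladder of 11.25 (SE 0.55, limma adjusted p = 4.79e-08). *Aqp8*, listed at 0 in 2 of the 3 Ctrl bladders, had 11.09 (SE 1.72), and without Ctrl bladder mouse 784 the values were 10.95 for *Car1* and 13.27 for *Aqp8*. These sizes depend on the pseudocount, and with 1 TPM they were 9.89 for *Car1* and 8.83 for *Aqp8*. The narrowest gap belonged to *Slc37a2*, a sugar phosphate and phosphate exchanger of the endoplasmic reticulum, at 5.41 (SE 0.45, limma adjusted p = 2.72e-06), and its bladder libraries stood at 5.16 to 11.1 TPM. *Ceacam20*, a receptor of the brush border membrane, and *Alpi*, the intestinal alkaline phosphatase, were listed at 0 in all 6 bladder libraries, and no fold is given for them. The call for *Alpi* in Ctrl mice rested on 0.134 to 0.139 TPM in colon. It was lost with a pseudocount of 1 TPM (limma adjusted p = 0.172), without Ctrl colon mouse 788 (0.0510), and without Ctrl colon mouse 787 (0.0562). In Y/T KO mice all 9 were again called higher in colon, where 25.8% of all genes tested were, from a log2 difference of 3.25 for *Slc37a2* to 11.19 for *Car1* among the same 7. *Alpi* passed the filter for these tests through the Y/T KO colon libraries alone.

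**Figure D1:**
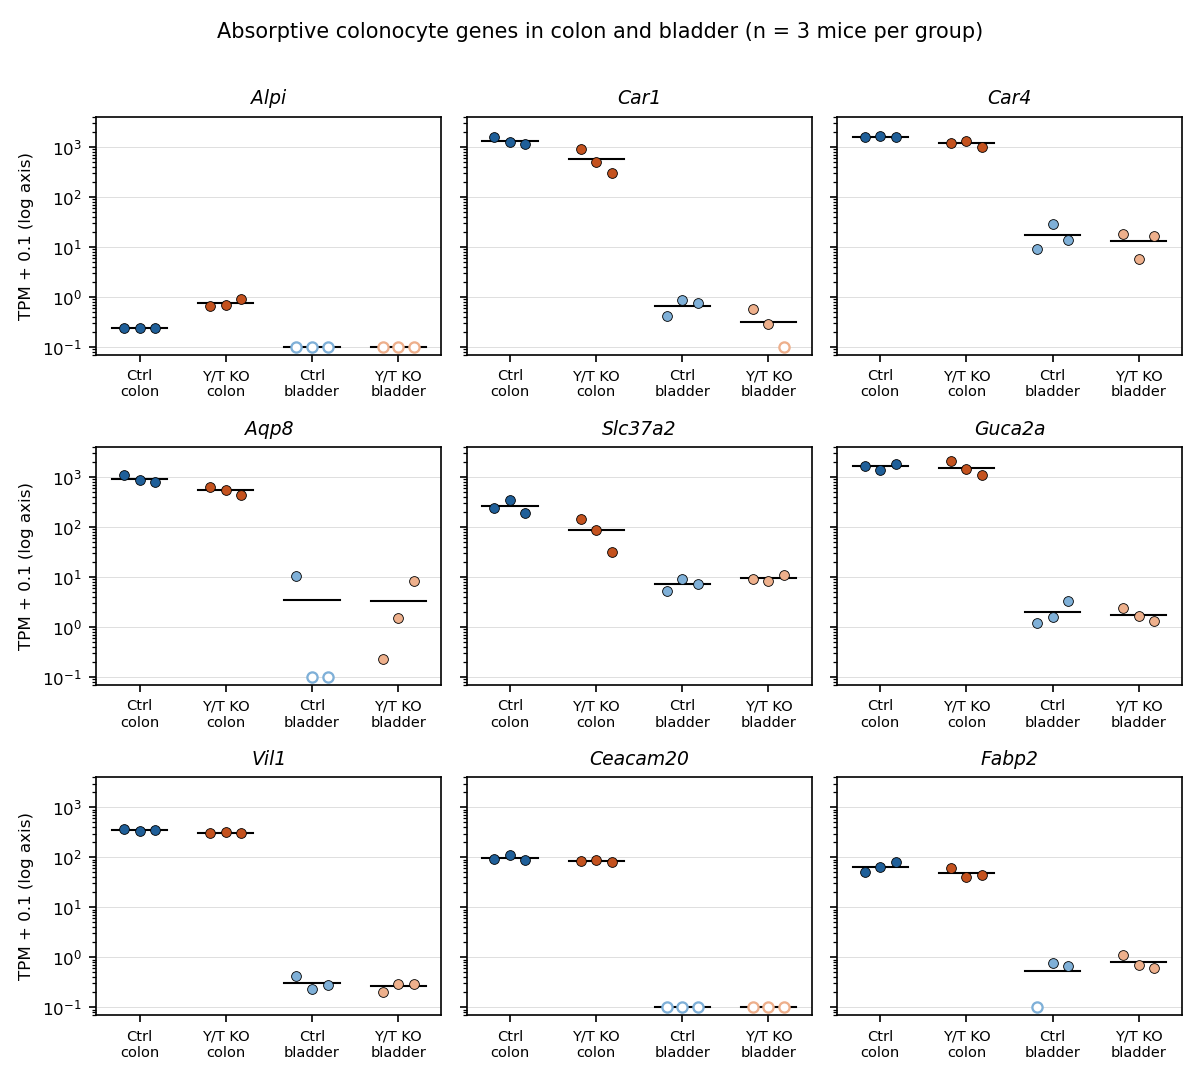
Deposited TPM plus 0.1 on a log axis for the 9 absorptive colonocyte genes, 1 point per mouse and a bar at the mean, in Ctrl and Y/T KO colon and bladder (n = 3 mice each). Open points are values of 0. Colon points lie above bladder points in every panel. The colon groups separate downward for *Car1*, *Car4*, *Aqp8*, and *Slc37a2* and, by small margins, for *Vil1* and *Ceacam20*. They separate upward, near the floor, for *Alpi*.

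Within Ctrl colon the members differed widely in level. *Guca2a*, which encodes guanylin, the peptide that activates guanylate cyclase C, averaged 1619 ± 334 TPM (SD, n = 3), followed by the membrane-anchored carbonic anhydrase *Car4* at 1556 ± 66.6, *Car1* at 1305 ± 226, and the water channel *Aqp8* at 909.8 ± 156. *Guca2a*, *Car4*, and *Car1* overlapped with their neighbours in this order, whereas *Aqp8* lay below *Car1* in every library. The villin gene *Vil1* averaged 350.3 ± 38.9 TPM and overlapped with *Slc37a2* at 251 ± 61.8, while *Ceacam20* at 95.1 ± 4.24 lay above the intestinal fatty acid binding protein *Fabp2* at 63.4 ± 16.8 in every library. *Alpi*, at 0.133 ± 0.0108 TPM, was far below the other 8. The order of the 9 means was the same in Y/T KO colon, where *Car1* and *Aqp8* overlapped, as did *Slc37a2* and *Ceacam20*.

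The promoters of the members were read to see what sequence the genes share beyond their expression. RefSeq promoters of GRCm38.p6 were found for 8 of the 9 (all but *Car1*), and the 250 bases before the RefSeq start were searched on both strands for letters bound by factors of intestinal epithelium and for the TEAD letters through which YAP and TAZ act. Shown 5′ to 3′ on the strand of each gene, with matches in capitals, are the one member with higher values in Y/T KO colon (*Alpi*, chr1:87101607-87101856, minus strand), a pair with lower values (*Aqp8*, chr7:123462044-123462293, plus strand, and *Slc37a2*, chr9:37255739-37255988, minus strand), and one whose genotypes overlapped (*Guca2a*, chr4:119637482-119637731, plus strand).
Alpi: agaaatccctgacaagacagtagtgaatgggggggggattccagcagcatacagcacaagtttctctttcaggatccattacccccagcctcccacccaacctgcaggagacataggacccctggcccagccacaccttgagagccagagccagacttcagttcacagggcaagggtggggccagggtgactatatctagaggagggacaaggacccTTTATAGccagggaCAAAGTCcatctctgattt
Aqp8: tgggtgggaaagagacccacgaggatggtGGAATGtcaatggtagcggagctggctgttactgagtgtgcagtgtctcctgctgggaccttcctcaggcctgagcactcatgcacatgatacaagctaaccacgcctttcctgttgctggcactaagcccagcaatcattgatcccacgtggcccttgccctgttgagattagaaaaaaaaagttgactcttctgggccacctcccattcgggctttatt
Slc37a2: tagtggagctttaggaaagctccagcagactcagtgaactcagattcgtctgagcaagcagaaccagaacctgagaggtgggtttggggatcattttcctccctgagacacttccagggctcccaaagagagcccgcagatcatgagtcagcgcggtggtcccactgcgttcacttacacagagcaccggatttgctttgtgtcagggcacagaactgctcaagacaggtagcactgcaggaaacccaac
Guca2a: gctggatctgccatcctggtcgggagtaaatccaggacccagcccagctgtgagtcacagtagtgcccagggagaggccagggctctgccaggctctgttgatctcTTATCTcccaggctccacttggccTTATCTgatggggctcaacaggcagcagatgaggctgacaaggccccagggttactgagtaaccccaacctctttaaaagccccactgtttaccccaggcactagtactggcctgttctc
The CDX letters TTTATNG occurred in 3 of the 8 promoters (*Alpi*, *Fabp2*, and *Ceacam20*) and in 9.74% of all 32536 promoters. In *Alpi* they start at base -33 and overlap the reverse complement of the TATA letters TATAAA, which no other member held and 12.3% of all promoters did. The letters CAAAGTC, searched for HNF4, follow at base -19 of *Alpi* alone and occurred in 3.87% of all promoters. The GATA letters AGATAA occurred in *Guca2a* alone, on the minus strand at bases -144 and -120 (9.97% of all promoters). The TEAD letters GGAATG occurred in *Aqp8* alone, at base -221 (12.6% of all promoters), and the KLF letters GGGTGTGG in no member (3.20%). *Slc37a2*, *Car4*, and *Vil1* held none of these letters in the window. No single motif was shared in this window by *Car4*, *Aqp8*, *Slc37a2*, and *Ceacam20*, which stood lower in Y/T KO colon. *Car1*, lower too, was not searched.

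In Y/T KO colon most members stood lower than in Ctrl colon, none of them past the adjusted threshold. Expression was lower in all 3 Y/T KO mice than in all 3 Ctrl mice for *Car1*, *Car4*, *Aqp8*, *Slc37a2*, and *Ceacam20* and higher in all 3 for *Alpi*, while *Guca2a*, *Vil1*, and *Fabp2* overlapped on the rescaled scale. These are 5 lower and 1 higher of 9 without overlap, beside 7.87% lower, 8.24% higher, and 16.1% in either direction of the 17500 genes tested. In the limma fit, 0 of the 9 passed an adjusted p of 0.05, beside 0.137% of all genes, and their adjusted p ran from 0.341 to 0.932. At an unadjusted p under 0.05, 4 were lower (*Car1*, *Car4*, *Aqp8*, and *Slc37a2*) and 1 was higher (*Alpi*), beside 4.59% lower and 5.14% higher of all genes. *Alpi* reached the filter of 0.5 TPM through the Y/T KO libraries alone. Its place among the higher genes in these counts is therefore not independent of the filter. The fitted log2 fold change was negative for 8 of the 9, against 49.1% of all genes, and its median over the 9 was -0.36, against 0.01 over all genes. Without Ctrl colon mouse 787 the members' median was -0.19.

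The carbonic anhydrases and the water channel, which serve the exchange of ions and water, stood lower together. *Car1* (ENSMUSG00000027556, chr3:14766216-14808368, minus strand) measured 1553, 1279.9, and 1157 TPM in the controls, against 891, 497, and 300.5 TPM in the knockouts. The Y/T KO mice were widely spread, and all lay below the Ctrl mice. Its log2 fold change in limma was -1.33 (SE 0.36, 95% interval -2.18 to -0.49, adjusted p = 0.370). *Aqp8* (ENSMUSG00000030762, chr7:123462291-123468004, plus strand) measured 1081, 890.1, and 810.0 TPM in the controls, against 646, 544, and 438 TPM in the knockouts. Its groups were apart in every mouse, and the log2 fold change was -0.74 (SE 0.19, interval -1.19 to -0.29, limma adjusted p = 0.341), the smallest adjusted p of the 9. *Car4* (ENSMUSG00000000805, chr11:84957786-84966044, plus strand) measured 1577, 1638, and 1548 TPM in the controls, against 1214, 1300.0, and 1016 TPM in the knockouts. The tight Ctrl values lay above all Y/T KO values, and the log2 fold change was -0.40 (SE 0.15, interval -0.75 to -0.06, limma adjusted p = 0.483).

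*Slc37a2* (ENSMUSG00000032122, chr9:37227585-37255738, minus strand) had the largest negative fold change of the members. It measured 241, 351, and 188 TPM in the controls, against 147, 89.4, and 32.1 TPM in the knockouts. All Y/T KO mice were below all Ctrl mice, with mouse 780 far below the other two at 13.0% of the Ctrl mean and mouse 759 at 58.7%. The log2 fold change was -1.70 (SE 0.53, interval -2.97 to -0.44, limma adjusted p = 0.439), and it was -1.10 without Y/T KO mouse 780.

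*Alpi* (ENSMUSG00000079440, chr1:87098002-87101606, minus strand), a brush border enzyme that strips phosphate from bacterial lipopolysaccharide and nucleotides, was the one member that stood higher. It measured 0.134, 0.135, and 0.139 TPM in the controls, against 0.563, 0.579, and 0.810 TPM in the knockouts. The groups were well apart, but both were near the lower end of what the libraries hold. Its single transcript of 2337 bases carried 529 to 576 aligned bases per Ctrl library and 2031 to 3232 per Y/T KO library. The log2 fold change was 1.68 (SE 0.45, interval 0.64 to 2.71, limma adjusted p = 0.358) and shrank to 0.54 with a pseudocount of 1 TPM. The gene was tested only because its Y/T KO libraries reached the filter of 0.5 TPM, which no Ctrl library did. Of the alternatives run it was called in a single case, limma without its trend and robust options (adjusted p = 0.0483).

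*Vil1* and *Ceacam20*, both of the brush border, differed little. *Vil1* (ENSMUSG00000026175, chr1:74409376-74435559, plus strand) measured 370.3, 338, and 361 TPM in the controls, against 305, 323, and 303 TPM in the knockouts. The genotypes were apart in TPM as deposited and overlapped after rescaling, with a log2 fold change of -0.16 (SE 0.14, interval -0.49 to 0.16, limma adjusted p = 0.717). *Ceacam20* (ENSMUSG00000070777, chr7:19965412-19991104, plus strand) measured 92.6, 111, and 89.1 TPM in the controls, against 86.0, 87.9, and 79.4 TPM in the knockouts. Its groups did not overlap, by a small margin, and the log2 fold change was -0.16 (SE 0.12, interval -0.45 to 0.12, limma adjusted p = 0.681). For both genes the interval excludes a halving or a doubling, values of -1 and 1 on the log2 scale.

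*Guca2a* (ENSMUSG00000023247, chr4:119637704-119639471, plus strand) measured 1673, 1391, and 1855 TPM in the controls, against 2111, 1452, and 1091 TPM in the knockouts. The Y/T KO mice held both the highest and the lowest value of the 6, and the log2 fold change of -0.09 (SE 0.27, interval -0.70 to 0.53, limma adjusted p = 0.932) turned to 0.13 without Y/T KO mouse 780 and to 0.046 without Ctrl mouse 787. *Fabp2* (ENSMUSG00000023057, chr3:122895072-122899506, plus strand), which binds fatty acids inside the enterocyte, measured 50.7, 62.7, and 80.0 TPM in the controls, against 62.2, 40.1, and 44.7 TPM in the knockouts. Mouse 759 lay among the Ctrl mice, and the fitted log2 fold change was -0.36 (SE 0.23, interval -0.90 to 0.18, limma adjusted p = 0.648). *Best4-ps* measured 0.376, 1.40, and 0.178 TPM in the controls, against 0, 0.0497, and 0 TPM in the knockouts, below the filter for testing.

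**Figure D2:**
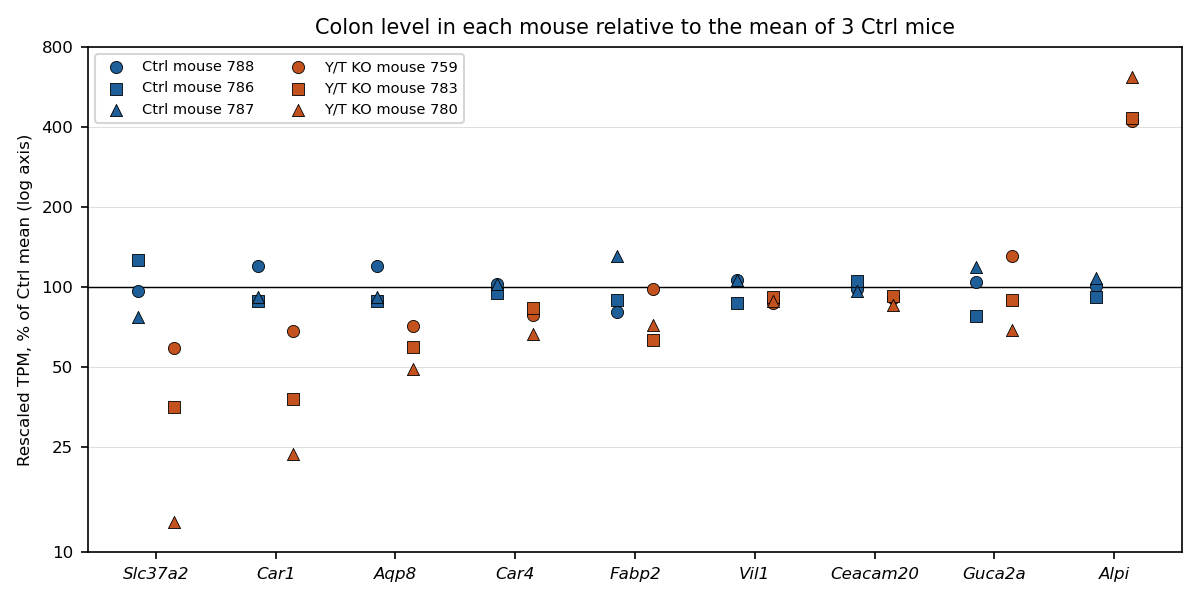
Rescaled TPM of each colon library as a percentage of the mean of the 3 Ctrl mice, on a log axis, with a symbol for each mouse. *Slc37a2* and *Car1* reach 13.0% and 23.5% in Y/T KO mouse 780, *Vil1* and *Ceacam20* stay between 85.1% and 106.5% in all 6 mice, and *Alpi* lies at 422% to 619% in the Y/T KO mice.

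The Y/T KO mice differed among themselves in a similar order for several members. On rescaled TPM, mouse 780 was the lowest of the 3 for 6 of the 9 genes (*Car1*, *Car4*, *Aqp8*, *Guca2a*, *Ceacam20*, and *Slc37a2*) and the highest for *Alpi*. Mouse 759 was the highest for 5 (*Car1*, *Aqp8*, *Guca2a*, *Slc37a2*, and *Fabp2*). Such an order was not particular to the knockouts. Ctrl mouse 786 was likewise the lowest of its 3 for 6 of the 9 genes (*Alpi*, *Car1*, *Car4*, *Aqp8*, *Guca2a*, and *Vil1*). The share of all genes with these orders was not counted. As deposited, *Vil1* was lowest in mouse 780 too. The summed level of the 9 genes was 6640, 6061, and 6087 TPM in the controls, against 5463, 4334, and 3306 TPM in the knockouts, which leaves all 3 Y/T KO sums below the Ctrl range.

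Markers of the other cell types in the wall moved with genotype to different degrees, and their part in the differences above was not tested. The 15 general epithelial markers summed to 14615 to 19476 TPM in Ctrl colon and 17200 to 19323 TPM in Y/T KO colon, overlapping ranges, and 0 of the 15 separated the genotypes. The 10 smooth muscle markers summed to 8688 to 9554 TPM in Ctrl and 5697 to 6698 TPM in Y/T KO, and 7 of the 10 were lower without overlap, with *Myh11* at a log2 fold change of -0.98, *Acta2* at -0.88, and *Myl9* at -0.58. The 11 pancreatic acinar markers summed to 84.0, 9.90, and 193 TPM in Ctrl and 1.34 to 2.27 TPM in Y/T KO, with *Cela2a* and *Prss2* at 0 in all 3 Y/T KO libraries and *Pnlip* at 0 in all but mouse 783. Of 8 leukocyte markers, *Cd3e* alone was higher in every Y/T KO mouse (log2 fold change 0.63), and 0 were lower. The goblet markers (27804 to 39514 TPM in Ctrl and 28992 to 36639 TPM in Y/T KO) and the position markers of the distal hindgut (414 to 509 and 355 to 491 TPM) overlapped between genotypes.

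Set against the geometric mean of the 15 epithelial markers in the same library, the members kept their directions. The log2 ratio to that mean differed by -1.82 for *Slc37a2*, -1.45 for *Car1*, -0.86 for *Aqp8*, -0.52 for *Car4*, -0.28 for *Vil1*, and 2.16 for *Alpi*, each without overlap between genotypes and each with an exact two-sided permutation p of 0.1, the smallest that 3 mice against 3 can give. *Ceacam20* (-0.28, exact p = 0.2), *Fabp2* (-0.47, exact p = 0.2), and *Guca2a* (-0.20, exact p = 0.6) overlapped on this scale. When limma was run with each library scaled to this mean, the median of all genes shifted to -0.11, and 0 of the 9 members were called.

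**Figure D3:**
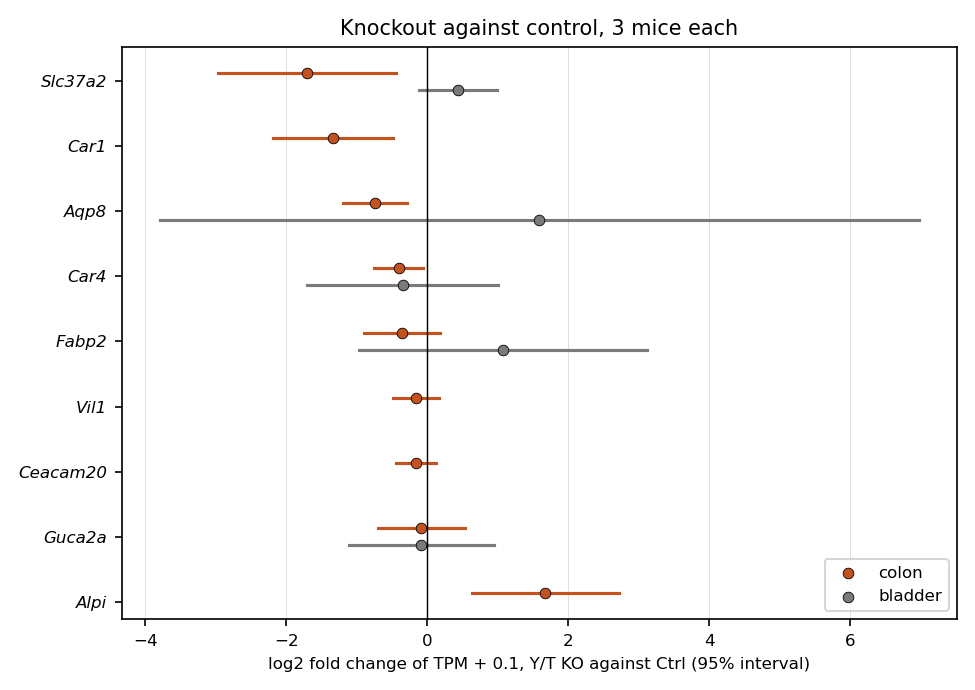
log2 fold change of TPM plus 0.1 with its 95% interval from limma, Y/T KO against Ctrl, in colon (9 genes) and in bladder (the 5 genes that passed the filter), 3 mice per group. Colon intervals lie below 0 for *Slc37a2*, *Car1*, *Aqp8*, and *Car4* and above 0 for *Alpi*, before adjustment over all genes, and every bladder interval includes 0. *Alpi* passed the filter through its Y/T KO colon libraries alone.

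Lists of related genes gave the setting of these values in colon, and 0 genes of any list passed the adjusted threshold. Of all genes tested, 7.87% were lower and 8.24% higher without overlap. Of 19 tested genes for ion and water transport, 5 were lower and 3 higher without overlap, with a median log2 fold change of -0.38. *Slc26a3*, the chloride bicarbonate exchanger of the apical membrane, measured 516, 689, and 403 TPM in the controls, against 362, 279, and 182 TPM in the knockouts (log2 fold change -0.95, limma adjusted p = 0.372). *Slc9a3*, its sodium proton partner, measured 25.6, 31.1, and 30.3 TPM in the controls, against 24.8, 16.2, and 10.8 TPM in the knockouts (-0.78, 0.464). The cytosolic carbonic anhydrase *Car2*, a relative of *Car1*, measured 1026, 899, and 857 TPM in the controls, against 666, 573, and 499.6 TPM in the knockouts (-0.65, 0.332). *Slc26a3*, *Slc9a3*, and *Car2* were thus lower in every Y/T KO mouse, as the member carbonic anhydrases were. *Slc9a2*, another sodium proton exchanger of the list, overlapped (83.5 to 103 TPM in Ctrl and 47.5 to 91.5 TPM in Y/T KO). In the opposite direction, *Scnn1g*, a subunit of the epithelial sodium channel, measured 2.75, 3.66, and 1.45 TPM in the controls, against 5.55, 3.63, and 6.13 TPM in the knockouts (1.03, 0.452), apart only after rescaling. *Aqp1* (59.3 to 66.1 TPM in Ctrl and 75.4 to 106 TPM in Y/T KO) and *Scnn1b* (6.10 to 12.9 and 13.0 to 15.7 TPM) were higher as well.

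In the guanylin pathway the related peptide and the receptor gave different pictures. *Guca2b*, which encodes uroguanylin, measured 29.5, 16.2, and 31.9 TPM in the controls, against 41.0, 49.0, and 53.9 TPM in the knockouts, higher in every Y/T KO mouse (log2 fold change 0.97, limma adjusted p = 0.424). Their shared receptor *Gucy2c* overlapped between genotypes (-0.17, limma adjusted p = 0.712), as *Guca2a* did. Of 15 tested brush border genes, 2 were lower and 0 higher without overlap (median log2 fold change -0.32). These were *Pls1*, an actin bundler like villin (-0.47), and *Cdhr2*, a cadherin that links microvilli (-0.31).

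Among 14 tested genes for digestion and uptake, 4 were lower and 3 higher without overlap (median log2 fold change -0.17). The lower ones included *Mep1a*, a brush border protease (-0.85), and *Slc15a1*, the peptide transporter (-0.58). The higher ones were *Fabp6*, *Mttp*, and *Slc37a1*. Of 21 genes of the mature surface epithelium, 6 were lower and 1 higher (median -0.09). *Cyp2c55*, a cytochrome P450 of the colonic surface, measured 819, 869.8, and 865 TPM in the controls, against 599, 449.7, and 295 TPM in the knockouts (log2 fold change -0.95, limma adjusted p = 0.332), and *Ces2c*, a carboxylesterase (-1.03), and *Aldh1a1*, a retinaldehyde dehydrogenase (-0.98), were lower in every Y/T KO mouse as well. In each of *Slc26a3*, *Slc9a3*, *Car2*, *Cyp2c55*, *Mep1a*, and *Aldh1a1* mouse 780 was again the lowest. By contrast, 0 of 11 tested transcription factors of the epithelium, *Cdx2* and *Hnf4a* among them, separated the genotypes (median 0.04), and the list of general epithelial markers had a median of 0.10. One gene, *Elf3*, is in both of those lists.

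The lists for other epithelial lineages held single genes in each direction. *Spink4* of goblet cells was higher in every Y/T KO mouse (log2 fold change 0.93), as were *Smoc2* of the crypt base (0.61) and the hormone *Pyy* (0.62), while *Cd44* of the crypt (-0.30) and *Tph1*, which makes serotonin in enterochromaffin cells (-1.20), were lower. None of these passed limma's adjusted threshold. *Smoc2* (159 to 245 TPM) and *Cd44* (43.7 to 113 TPM) were also found in bladder. In whole-wall RNA they are therefore not particular to the crypt.

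**Figure D4:**
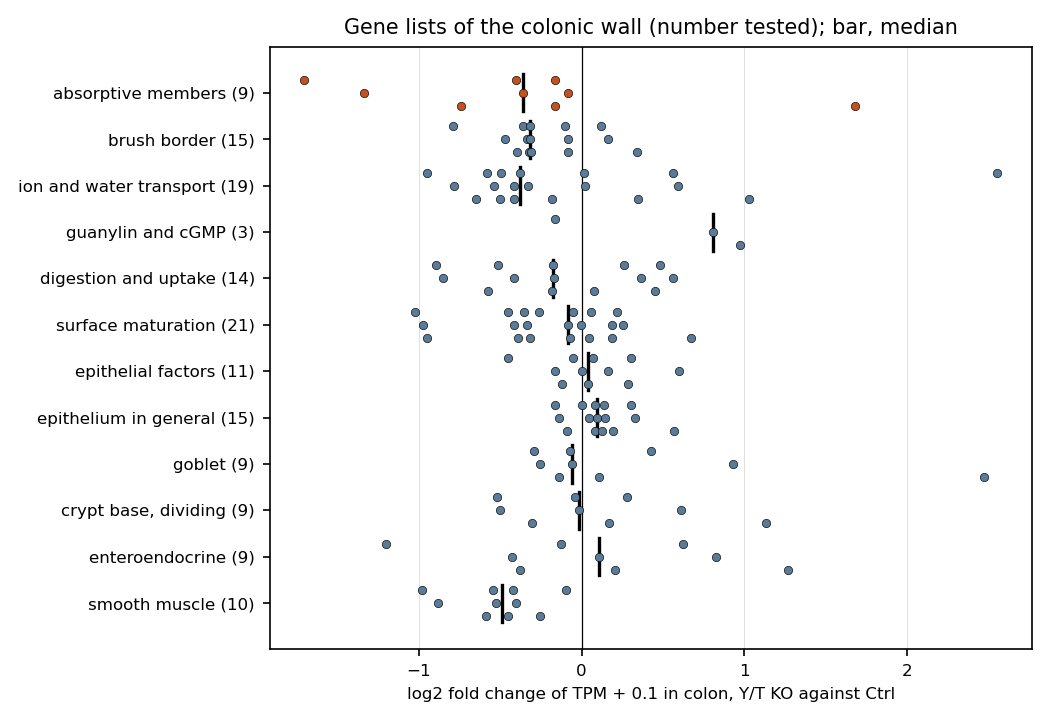
log2 fold change of TPM plus 0.1 in colon, Y/T KO against Ctrl, 1 point per tested gene in 12 lists, with a bar at each list's median. The medians of the members (-0.36), the ion and water transport genes (-0.38), and the brush border genes (-0.32) lie to the left of those of the general epithelial markers (0.10) and the epithelial transcription factors (0.04). The digestion and uptake (-0.17) and surface maturation (-0.09) genes lie between them. Of the 3 guanylin and cGMP genes, 2 lie to the right of 0 and 1 to the left. Their median of 0.81 is that of *Prkg2*, which overlapped between genotypes (0.261 to 1.27 TPM in Ctrl and 0.190 to 2.29 TPM in Y/T KO). The smooth muscle genes have a median of -0.49.

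In the bladder, 5 members passed the filter and 0 differed between genotypes at an adjusted or an unadjusted p under 0.05 in limma, beside 0.302% and 14.8% of the 18237 genes tested. All 5 overlapped, which leaves 0 without overlap beside 22% of all genes. *Slc37a2* measured 5.16, 9.09, and 7.19 TPM in the bladder of controls, against 9.25, 8.24, and 11.1 TPM in that of knockouts, and *Car4* 8.89, 28.2, and 13.6 TPM against 17.8, 5.61, and 16.4 TPM. Their log2 fold changes were 0.44 (SE 0.23, limma adjusted p = 0.425) and -0.35 (SE 0.56, limma adjusted p = 0.808), and that of *Car4* turned to 0.11 without Ctrl mouse 785 and to 0.16 without Y/T KO mouse 783. *Guca2a* and *Fabp2* lay between 0 and 3.18 TPM in all 6 libraries. *Car1* and *Vil1* lay at or below 0.762 TPM in every bladder library and were not tested.

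*Aqp8* in the bladder separated single libraries and not genotypes. It measured 10.2, 0, and 0 TPM in the controls, against 0.125, 1.42, and 8.34 TPM in the knockouts, so that mice 784, 780, and 783 held nearly all of it. Secretory genes of the male accessory glands, *Sbp*, *Pbsn*, *Msmb*, and *Defb50*, chosen after the values were seen, summed to 42715, 14.6, and 38.2 TPM in the controls, against 19.8, 40702, and 29714 TPM in the knockouts, high in the same 3 libraries. Their part in the *Aqp8* values was not tested.

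The difference of the knockout effect between colon and bladder could be tested for the 5 members that passed the filter in both tissues. In limma 0 of 5 passed an adjusted p of 0.05, beside 0.0491% of 16298 genes, and 1 of 5 passed an unadjusted p of 0.05, beside 12.6% of all genes. That gene was *Slc37a2*, with a log2 difference of -2.16 (SE 0.64, interval -3.58 to -0.75, limma adjusted p = 0.252), with a negative fitted change in colon and a positive one in bladder. The other intervals were wide and included 0, from -7.84 to 3.26 for *Aqp8*, -3.32 to 0.49 for *Fabp2*, -1.45 to 1.29 for *Car4*, and -1.14 to 1.09 for *Guca2a*.

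The genes closest in pattern to each member were found among 17491 others by the root mean square difference of centred log2 values over the 12 libraries, a measure that is led by the gap between the tissues. The closest match of all was *Clrn3* to *Ceacam20*, at 0.069. *Gucy2c* was closest to *Guca2a* at 0.349, *Gm1123* to *Vil1* at 0.295, *Pdzd3* to *Car4* at 0.400, *Gm48265* to *Slc37a2* at 0.402, and *Tifa* to *Alpi* at 0.404. The remaining members had looser matches, with *Sult1b1* at 0.729 for *Car1*, *Cyp3a13* at 0.736 for *Fabp2*, and *Slc6a14* at 1.04 for *Aqp8*. *Dio1* and *Glod5* were among the 3 closest genes for both *Guca2a* and *Ceacam20*.

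Several members share sequence or a locus with other genes. *Alpi* matched *Akp3* at 81.9% over 1584 bases of its 2337-base transcript and *Alppl2* at 83.2% over 1450 bases, and both were listed at 0 in all 6 colon libraries. It also matched the pseudogene *Akp-ps1* at 80.8% over 1544 bases, which measured 0, 0.0858, and 0 TPM in colon of the controls, against 0, 0.167, and 0.194 TPM in that of the knockouts. How reads were split between these genes was not tested. *Car1* matched the pseudogene *Gm5843* at 97.9% over 476 bases, which was listed at 0 in every library, and holds the pseudogene *Gm16399* on its own strand, at 1.05 to 6.23 TPM in colon. *Slc37a2* overlaps *Gm10177* on the opposite strand, at 98.0 to 165 TPM in the 12 libraries, and matched its paralog *Slc37a1* at 72.3% over 578 bases. *Slc37a1* measured 67.9, 65.4, and 63.0 TPM in the controls, against 81.1, 97.7, and 89.5 TPM in the knockouts, opposite to *Slc37a2*. Of the other relatives of members, *Fabp1* was listed at 0 in all 6 colon libraries, and *Alpl* (3.96 to 18.7 TPM), *Car7* (0.677 to 1.82 TPM), and *Ceacam1* (545 to 689 TPM) overlapped between genotypes there. For *Car4*, which has 6 annotated transcripts of 435 to 1256 bases, deposited coverage was only 20.8% to 21.6% of what its FPKM and the library depth give, and its fold change kept its direction with coverage in place of TPM.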

How the data were processed

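A total of 12 libraries from distal colon and urinary bladder, 3 per tissue and genotype, were grouped by their labels. Per the labels and the study's methods, stranded mRNA libraries were prepared by the authors, and the processing notes name HISAT2, StringTie, and GRCm38. The TPM values, FPKM values, and per-base coverage of each gene were estimated by the authors with StringTie and deposited as a table per library. Versions and the strand setting are not given in the sources used here. The depth of a library is the mode over genes of coverage divided by FPKM. Read counts were not used here.

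Rows were summed by gene ID. A gene was kept where 3 or more libraries of the fit reached 0.5 TPM as deposited. For the difference between tissues this had to hold within each tissue. TPM was then divided by size factors (median of ratios). The log2(TPM + 0.1), which understates the change of genes near 0, was fitted with limma 3.58.1 in R 4.3.3 (trend and robust options), with Benjamini-Hochberg adjustment over all genes tested and a threshold of 0.05. Knockout was compared with control within each tissue. Tissues, and the difference between them, were contrasts of 4 group means over all 12 libraries. p-values measure the spread between mice. Mice 780, 783, and 788 gave both tissues, so their numbers pair those libraries, whose deviations from the group means correlated at 0.0470, 0.0754, and -0.0141.

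Gene positions are from GENCODE M21 (54409 of 54532 gene IDs found), and promoters from RefSeq. Near copies were found with blastn 2.17.0 (e-value 1e-10). Python 3.11.15, pandas 2.3.3, scipy 1.17.1, and matplotlib 3.10.9 were used.

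The members and gene lists were chosen with earlier results of these data known. Besides the members, the text names up to 3 genes of each list (the largest colon fold changes among genes whose genotypes do not overlap), relatives of members, tissue markers, and the genes closest in pattern to each member. *Yap1*, *Wwtr1*, *Fcgbp*, *Zg16*, *Gm10177*, *Gm16399*, *Cdx2*, *Hnf4a*, *Gucy2c*, *Prkg2*, *Slc9a2*, *Aqp1*, *Scnn1b*, *Fabp6*, *Mttp*, *2200002D01Rik*, and the male gland genes were named outside this rule.

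On simulated colon libraries with 200 changed genes among 17500, limma called 19.0% of those with a log2 change of 1 and 73.5% of those with a change of 2. Alternatives were the pseudocount, the filter, TPM as deposited, FPKM, epithelial scaling, all 12 libraries in one fit with and without the mouse as a block, limma without its options, each library left out, and coverage in place of TPM, the last chosen after seeing the data.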

Additional observations from a re-analysis of the deposited data

How the results depend on the processing

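Of the alternative values, 844 stayed on the same side of the threshold, within the spread of the reported value or, for counts, within 1.5 times it, 39 moved by more, 3 lost a call, 1 gained one, and 1 median turned its direction. Among the 844, fold changes that were not called turned sign for *Guca2a* in colon, bladder, and the difference between tissues and for *Car4* in the last 2, in each case with a library left out. No member was called in Y/T KO colon in 16 of the 17 alternatives. The exception was 1 member, *Alpi*, without limma's trend and robust options. No member was called in the bladder or in the difference between tissues under any alternative run. All 9 members stayed higher in Y/T KO colon than in Y/T KO bladder throughout, and 8 or 9 did in Ctrl mice.

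Counts over all genes moved more. The colon counts of 14 lower and 10 higher became 2 and 4 without the filter on low values, 43 and 32 with all 12 libraries in one fit, and 42 and 32 with the mouse as a replicate block. Leaving out single libraries gave 3 to 44 lower and 3 to 25 higher genes, with the highest values without Y/T KO mouse 759. The bladder counts of 40 and 15 became 25 higher with all 12 libraries in one fit and 25 higher with the block, and 14 to 36 lower and 1 to 15 higher with a library left out. The difference between tissues, 5 lower and 3 higher, ran from 3 to 16 and from 2 to 12 with a library left out, highest without Y/T KO colon mouse 759. The cause was not tested for these shifts. The block, which pairs the tissues of 3 mice, had a consensus correlation of 0.0495 to 0.0566 and changed no call of a member. The median over the bladder members turned from 0.44 to -0.087 without the filter, where 7 in place of 5 members were tested.

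Without Y/T KO colon mouse 759 the adjusted p reached 0.0657 for *Car1* in colon and 0.0723 for *Slc37a2* in the difference between tissues. Changes of a log2 of 1 were called for only 19.0% of simulated colon genes, and levels near 0.1 TPM, as for *Alpi* in Ctrl colon, depend on the pseudocount.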
